A study of Mus musculus with 12 samples.

Results

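Splicing factor genes encode the proteins that recognise splice sites in precursor messenger RNA, assemble on it and remove its introns. They were taken here as every gene symbol that starts with Srsf, Sf3a, Sf3b or Rbm followed by a number, or with Hnrnp, Snrp or U2af. The rule found 95 of the 23238 symbols in the deposited files: 11 Srsf, 20 Hnrnp, 3 Sf3a, 6 Sf3b, 12 Snrp, 3 U2af and 40 Rbm symbols. Rbm, for RNA-binding motif, is a naming series rather than a family of 1 function, and some of its members act outside splicing. The rule is by name, so it also took up transcripts such as Rbm3os and Rbm46os, which lie opposite Rbm3 and Rbm46.

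The libraries came from mouse meninges, the membranes around the brain, at 20 weeks of age, and all carry the strain label C57BL/6. The 3 groups were AD_TG, AD_B6 and SJL_B6, with 4 libraries each. Meningeal lymphatic endothelial cells, which line the lymph vessels of these membranes, were isolated with magnetic beads from 3 to 4 mice per strain. Each library was made from 500 ng of RNA with a QuantSeq kit (Lexogen). The title of the series concerns raised DSCR1 and amyloid pathology in Alzheimer's disease, but the labels do not spell out AD, TG, SJL or B6, nor name a promoter or a transgene. AD_TG and AD_B6 share the AD label and differ in TG against B6. AD_B6 and SJL_B6 share the B6 label and differ in AD against SJL. Whether each library is an animal of its own is not given, and with 3 mice 4 libraries cannot all be, so every p-value below measures only the spread between these samples.

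The spliceosome is built on each intron from small nuclear ribonucleoprotein particles, whose shared Sm ring is made of Snrp proteins. U2af proteins bind the end of the intron, and the SF3A and SF3B complexes anchor the U2 particle at the branch point. Srsf proteins, rich in arginine and serine, mostly favour the use of a splice site, whereas hnRNP proteins coat new transcripts and often hold sites back. Endothelial cells, like all nucleated cells, need this machinery, and its regulators differ in amount between tissues.

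Rbm4 and Rbm4b are neighbouring genes on mouse chromosome 19 that encode related alternative splicing regulators. Their sequences are shown because, of all tested members, they had the smallest unadjusted p-values in both comparisons that involve AD_B6, and because reads can be shared between them. The first 90 coding bases are the same in both, on the minus strand for Rbm4 (GRCm38, GENCODE M21, chr19:4792720-4792809) and the plus strand for Rbm4b (chr19:4757258-4757347), and both stretches lie in the first coding exon:
Rbm4 and Rbm4b: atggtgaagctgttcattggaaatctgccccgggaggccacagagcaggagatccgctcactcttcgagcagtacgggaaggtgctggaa
The first coding exon has 412 bases in each gene and no difference between them. The first differing base is at coding position 426, counted from 1 at the start codon. The next stretch begins the second coding exon, at coding positions 413 to 502 (Rbm4, minus strand, chr19:4787953-4788042; Rbm4b, plus strand, chr19:4761977-4762066), with the 12 bases that differ in capitals:
Rbm4: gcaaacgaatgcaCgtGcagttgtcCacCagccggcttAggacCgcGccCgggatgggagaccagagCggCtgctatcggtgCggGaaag
Rbm4b: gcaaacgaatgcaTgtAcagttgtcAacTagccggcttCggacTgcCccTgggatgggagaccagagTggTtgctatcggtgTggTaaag
Over the whole coding sequence, 926 of 1070 aligned bases were identical (86.5%). The last 300 bases of the longest Rbm4 transcript held 0 runs of 50 bases that occur in Rbm4b, while 377 such runs were shared over the full transcripts. How the authors placed reads that match both genes is not stated in the labels. A further annotated gene, Gm21992, is a readthrough of Rbm14 and Rbm4 that overlaps both. Its reads cannot be told from theirs without knowing the rule used to count.

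The deposited values are log2(x + 1) of a scaled amount per gene symbol, and the same read is worth the same amount for every gene of a library. On the linear scale the low values lay on even steps of 0.698 to 1.75 per read, which puts the depth at about 4014885 to 9267212 assigned reads per library. A linear value of 0.3 or more counts below as having reads, because several libraries list genes without reads at a small value above 0, up to 0.07 on the log2 scale. Snrpd2, a core protein of the Sm ring that every dividing or resting cell uses, was listed at 0 in AD_B6 replicate 3. Elsewhere it was at 5.27 to 9.65 on the log2 scale. What such a 0 stands for was not tested. Members with such zeros are therefore given library by library.

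Markers set the sample in context. Of the 11 lymphatic markers, 10 had reads in at least 1 AD_TG library, 9 in at least 1 AD_B6 library and 10 in at least 1 SJL_B6 library. Prox1, which defines lymphatic endothelium, had reads in none of the AD_TG and none of the AD_B6 libraries and in 2 of the SJL_B6 libraries. Lyve1, shared with macrophages, had reads in 11 of the 12 libraries, and Flt4, another lymphatic marker, in 6. The 11 lymphatic markers together took 0.0483 to 0.0572% of the linear total in AD_TG, 0.0434 to 0.0688% in AD_B6 and 0.0582 to 0.0764% in SJL_B6. The 11 macrophage markers took 0.295 to 0.482%, 0.217 to 0.549% and 0.379 to 0.645% in the same order of groups. The 7 choroid plexus markers took 1.98 to 8.14% in AD_TG, 0.370 to 11.1% in AD_B6 and 0.284 to 6.52% in SJL_B6, and the 7 meningeal fibroblast markers 0.110 to 0.674%, 0.180 to 0.893% and 0.176 to 0.452%. The labelled cell type was thus weakly marked, and the part of other cells in the results below was not tested. In such bulk RNA, fewer cells of a type and less RNA per cell cannot be told apart.

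Most splicing factor genes were seen in every library. Reads were present in all 12 libraries for 55 of the 95 members (57.9%), in 1 to 11 libraries for 36, and in no library for 4. Over all symbols, 4950 of 23238 (21.3%) had reads in all 12. The families differed: 10 of 11 Srsf, 17 of 20 Hnrnp and 5 of 6 Sf3b genes had reads everywhere, as did 8 of 12 Snrp genes, while 13 of 40 Rbm genes, 1 of 3 Sf3a genes and 1 of 3 U2af genes did. The 4 members without a read in any library were Rbm44, Rbm31y, Rbm3os and Srsf12. All 47 members with a mean of at least 8 on the log2 scale had reads in every library, against 8 of the 48 below it. The mean includes libraries without reads, which lower it, so this split is in part built in.

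Per library, 81, 80, 81 and 83 members had reads in AD_TG, 83, 78, 68 and 80 in AD_B6, and 83, 85, 82 and 79 in SJL_B6. The lowest number, 68, belonged to AD_B6 replicate 3, and the other libraries had 78 or more. That library also had the fewest symbols with reads, 8748, where the others had 10438 to 12217, although its estimated depth of 8913250 reads was among the deepest. It lacked reads for 18 of the 85 tested members (21.2%) and for 31.6% of all tested genes. Hnrnph2, Rbm4, Rbm7, Rbm10, Rbm34 and Snrpd2 were without reads in that library and in no other. The next fewest symbols with reads, 10438 and 10520, were in AD_B6 replicates 4 and 2. Every AD_TG and SJL_B6 library had 10860 or more. AD_B6 replicates 4 and 2 lacked reads for 20.8 and 19.5% of all tested genes, against at most 17% in AD_TG and SJL_B6. Of the tested members they lacked 8.24 and 9.41%, where AD_TG replicate 2 lacked 10.6%. All members together made up 0.937 ± 0.0938% of the linear total in AD_TG, 0.926 ± 0.0777% in AD_B6 and 0.945 ± 0.0933% in SJL_B6 (SD, n = 4 each), so the groups overlapped widely in the summed level of the machinery.

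**Figure D1:**
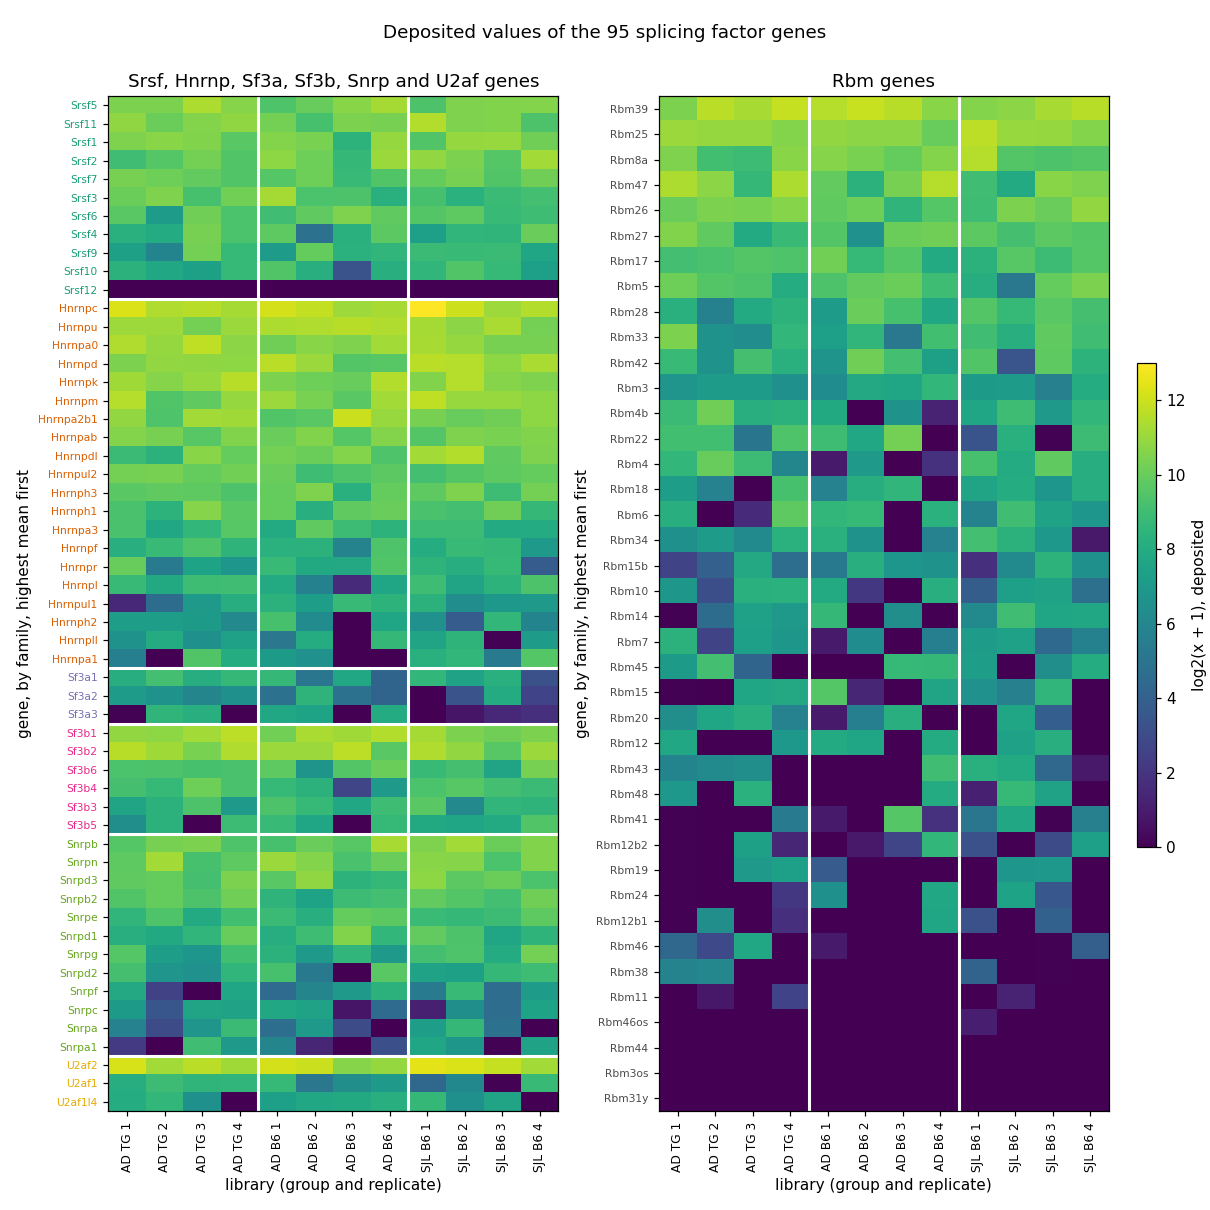
Deposited log2(x + 1) values of the 95 splicing factor genes (rows, by family, highest mean first) in each library (columns: AD_TG, AD_B6, SJL_B6, replicates 1 to 4), with colour from 0 to 13. The 47 genes with a mean of at least 8, libraries without reads included, have reads in all 12 libraries. The lower Rbm rows are broken by dark cells, and AD_B6 replicate 3 has the most dark cells, with 68 members that have reads.

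The highest members came from 4 families. Hnrnpc, which binds uridine-rich stretches of nascent RNA, had the highest mean of the deposited values (11.72 on the log2 scale) and ranked at position 155 among all symbols. It was at 12.32, 11.45, 11.61 and 11.24 in AD_TG, at 12.18, 11.83, 11.10 and 11.30 in AD_B6, against 12.96, 12.04, 11.08 and 11.50 in SJL_B6. U2af2, the large subunit that binds the polypyrimidine tract, followed at 11.64, and Rbm39, a U2AF-related factor, at 11.26. Hnrnpu, a nuclear matrix protein, had 11.09, and the SF3B subunits Sf3b1, which contacts the branch point, and Sf3b2 had 10.93 and 10.92. Hnrnpa0, Hnrnpd, Rbm25 and Hnrnpk completed the 10 highest with 10.87, 10.85, 10.84 and 10.81. Neighbours in this order differ by less than the SD of their own libraries.

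Per length, the order changed. Divided by the length of the longest coding transcript, the mean linear value was 1571 per kilobase for U2af2, 1278 for Hnrnpc and 1104 for Snrpb, an Sm ring protein. Hnrnpa2b1, which binds and sorts RNA, followed with 963 and Srsf5, the highest Srsf gene, with 955. Of the 10 members highest by log2 mean, 5 were also among the 10 highest per kilobase. Whether the length matters depends on how far reads were confined to transcript ends, which the labels do not state.

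Srsf genes as a family overlapped between groups. Their summed share of the linear total was 0.140 ± 0.0354% in AD_TG, 0.139 ± 0.0278% in AD_B6 and 0.136 ± 0.0168% in SJL_B6 (SD, n = 4 each). Srsf5, the highest of them by mean, was at 10.43, 10.46, 11.42 and 10.65 in AD_TG, at 9.42, 9.99, 10.68 and 11.23 in AD_B6, against 9.35, 10.51, 10.53 and 10.59 in SJL_B6. Its groups overlapped. Srsf1, a founding member of the family chosen here as a well-known example after its values were seen, was at 10.50, 10.69, 10.54 and 9.68 in AD_TG, at 10.61, 10.37, 8.42 and 10.97 in AD_B6, against 9.47, 10.93, 10.98 and 10.18 in SJL_B6.

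The Hnrnp family took 0.326 ± 0.0582% in AD_TG, 0.326 ± 0.0325% in AD_B6 and 0.343 ± 0.0563% in SJL_B6, the largest share of any family. The Rbm genes took 0.225 ± 0.0274%, 0.222 ± 0.0185% and 0.214 ± 0.0236%, and the Sf3b genes 0.0945 ± 0.0148%, 0.0908 ± 0.0104% and 0.0780 ± 0.0223% (SD, n = 4 each). The Snrp genes took 0.0892 ± 0.0160% in AD_TG, 0.0898 ± 0.00638% in AD_B6 and 0.107 ± 0.0274% in SJL_B6. In each of these families the ranges of the groups overlapped.

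The Sf3a genes, which encode the trimer that joins SF3B to the U2 particle, took a far smaller share than the Sf3b genes, with 0.00922 ± 0.00362% in AD_TG, 0.00664 ± 0.00315% in AD_B6 and 0.00405 ± 0.00332% in SJL_B6 (SD, n = 4 each). Sf3a1, the highest, was at 8.12, 9.11, 8.12 and 8.67 in AD_TG, at 8.64, 5.11, 7.75 and 4.17 in AD_B6, against 8.63, 7.48, 8.23 and 3.24 in SJL_B6. Sf3a3 was split within groups: it was at 0.07, 8.51, 8.21 and 0 in AD_TG and at 7.77, 7.56, 0 and 8.01 in AD_B6, but at 0.02, 0.75, 1.47 and 1.82 in SJL_B6. No SJL_B6 library reached 2 on the log2 scale, while 5 of the other 8 libraries exceeded 7. Sf3a3 passed the filter of the test (10 on the linear scale in 4 or more libraries) only through AD_TG and AD_B6 libraries. The gap to SJL_B6 is therefore described and not taken as support for a difference. The difference of AD_B6 minus SJL_B6 was 4.82 with an interval of -0.46 to 10.10 (limma, 95%), which includes 0, with an unadjusted p of 0.0717. With each library left out in turn it lay between 4.10 and 6.77, with an unadjusted p of 0.0178 without AD_B6 replicate 3 and 0.146 without AD_B6 replicate 4, and that p was under 0.05 in 3 of 22 alternatives.

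The spread between replicates set the precision of the comparisons. Among the 55 members with reads everywhere, the median SD within groups was 0.812 on the log2 scale, and the counting error at a median of 901 reads, 0.0582, was a small part of it. All 4950 genes with reads everywhere had a median SD of 1.04, with lower values at higher levels. Side by side at matched level, between 10 and 11 on the log2 scale the median SD was 0.702 for 18 members and 0.643 for 599 genes, between 9 and 10 it was 0.798 for 13 members and 0.846 for 1195 genes, and between 8 and 9 it was 1.10 for 12 members and 1.14 for 1449 genes.

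Among the 55 members with reads everywhere, Rbm25, a factor that binds exonic sequence, had over all 12 libraries the lowest SD (0.398), followed by Hnrnpab (0.430), Hnrnpu (0.441) and Hnrnpul2 (0.442). Rbm25 was at 11.06, 10.93, 10.92 and 10.58 in AD_TG, at 10.88, 10.74, 10.75 and 9.998 in AD_B6, against 11.72, 10.998, 10.95 and 10.59 in SJL_B6. The highest SDs among members with reads everywhere belonged to Snrpc (2.57), the U1 protein that steadies pairing at the donor site, Hnrnpl (2.14), Rbm15b (2.13) and Hnrnpul1 (2.06). Snrpc was at 7.10, 3.47, 7.60 and 7.498 in AD_TG, at 7.77, 7.498, 0.75 and 4.54 in AD_B6, against 1.14, 6.46, 4.65 and 7.54 in SJL_B6, so each group held libraries far apart.

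**Figure D2:**
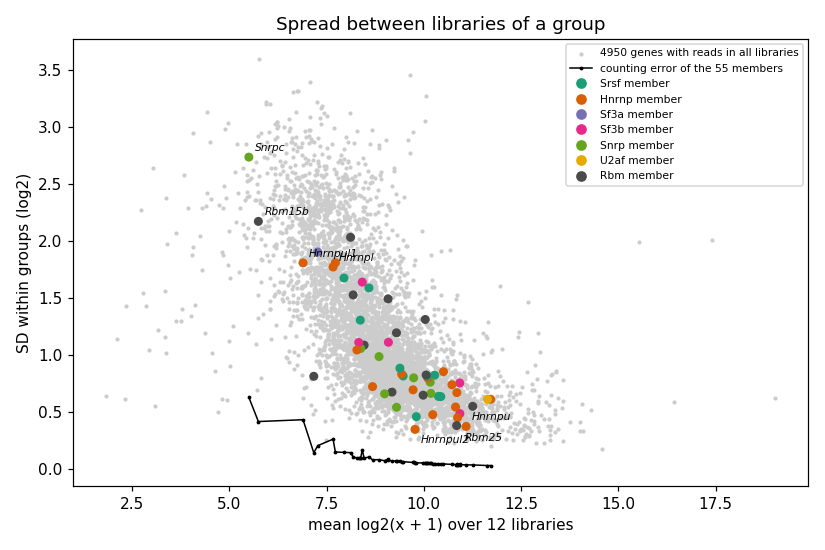
SD within groups (log2) against the mean log2(x + 1) over 12 libraries, for the 4950 genes with reads in all libraries (grey) and the 55 members among them (coloured by family), with the members' counting error as a black line. The members lie within the grey cloud, at a median SD of 0.812, and all lie above the line, whose median is 0.0582.

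Differences between groups were tested with limma over the 11955 genes that passed a filter on low values, 85 of them splicing factor genes, with p-values adjusted by the Benjamini-Hochberg method over all of them. The 10 members that did not pass were 9 Rbm genes and Srsf12. No gene of any kind was called at an adjusted p of 0.05 in any comparison, so the background is 0% of genes called and 0 members were called. The lowest adjusted p-values over all genes were 0.871 for AD_TG against AD_B6, 0.999 for AD_TG against SJL_B6 and 0.869 for AD_B6 against SJL_B6. The median 95% interval of a member's difference reached 1.96 log2 units to either side, so differences of several-fold were not detectable for most members. The values that follow describe members with a low unadjusted p, none of which passed the test. The 3 comparisons share libraries in pairs, and the AD_B6 libraries stand in both comparisons in which they appear with opposite sign.

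AD_TG was set against AD_B6, which compares TG with B6 among AD libraries. At an unadjusted p under 0.05, 4 of the 85 tested members were higher in AD_TG (4.71%, against 4.34% of all tested genes) and 0 were lower (against 1% of all tested genes). The members' share is near that of all genes. The 4 were Rbm4, Rbm4b, Sf3b4 and Hnrnpl. Of the members, 55 had a difference above 0 and 30 below it, where 62.8% of all tested genes lay above 0 and 37.2% below. Their median difference was 0.28, and that of all tested genes 0.41. Without AD_B6 replicate 3 the medians were 0.10 for the members and 0.22 for all tested genes. Over all genes 519 were higher and 120 lower at an unadjusted p under 0.05, and quantile normalization changed this split to 305 higher and 222 lower.

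Rbm4 regulates alternative exons and translation. It was at 8.59, 9.997, 8.92 and 5.98 in AD_TG, at 0.95, 6.99, 0 and 1.86 in AD_B6, against 9.20, 7.98, 9.85 and 8.10 in SJL_B6. The AD_B6 values correspond to about 1, 150 and 2 reads in replicates 1, 2 and 4. AD_B6 replicate 2 exceeded AD_TG replicate 4, so these groups overlapped, whereas every AD_B6 library lay below every SJL_B6 library. The AD_TG and SJL_B6 groups overlapped throughout. AD_TG minus AD_B6 was 5.92 ± 1.70 (SE, unadjusted p = 0.00187, adjusted p = 0.871 by limma) with a 95% interval of 2.42 to 9.42, and relative to the median of all genes it was 5.51.

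Gm21992, the readthrough gene, equalled Rbm4 within 0.02 log2 units in 8 of the 12 libraries and was never more than 0.487 away. It is thus largely the same measurement as Rbm4 and adds no separate result. Its values were 8.48, 9.997, 9.05 and 6.47 in AD_TG, 0.95, 6.99, 0 and 1.86 in AD_B6, and 9.21, 7.98, 9.69 and 8.10 in SJL_B6.

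Rbm4b was at 8.88, 10.18, 8.19 and 8.34 in AD_TG, at 7.91, 0, 6.65 and 1.22 in AD_B6, against 7.62, 8.96, 7.001 and 8.61 in SJL_B6. Every AD_TG library was above every AD_B6 library, though AD_B6 replicate 1 reached 7.91 and overlapped SJL_B6. AD_TG minus AD_B6 was 4.95 ± 1.61 (SE, unadjusted p = 0.00515, adjusted p = 0.871 by limma). In AD_B6 replicates 1 and 3 Rbm4b was above 6 where Rbm4 was below 1, in replicate 2 it was the reverse, and in replicate 4 both were below 2. Rbm4 and Rbm4b were within 0.02 of each other in 0 libraries.

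Because Rbm4 and Rbm4b share their first coding exon, their linear values were also summed, a step chosen after the values were seen. On the log2(x + 1) scale the sum was 9.74, 11.09, 9.60 and 8.59 in AD_TG, 7.92, 6.99, 6.65 and 2.31 in AD_B6, and 9.61, 9.55, 10.04 and 9.38 in SJL_B6. Every AD_B6 library lay below every library of the other groups, with replicate 4 at about 2 reads of Rbm4 and 1 of Rbm4b. The share of all genes in this state was not counted, so nothing is read from it. No test is given for the sum, since the genes were picked for it.

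Rbm14, which lies beside Rbm4 and shares the readthrough, showed other values: it was at 0.07, 4.60, 7.42 and 7.02 in AD_TG, at 8.65, 0, 6.41 and 0.03 in AD_B6, against 6.22, 8.99, 7.62 and 7.78 in SJL_B6. Rbm14, a paraspeckle protein, had no reads in 1 AD_TG and 2 AD_B6 libraries. Its difference was 1.005 for AD_TG minus AD_B6 (unadjusted p = 0.676; -0.25 without AD_B6 replicate 2 and -0.24 without replicate 4) and -3.88 for AD_B6 minus SJL_B6 (unadjusted p = 0.116).

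**Figure D3:**
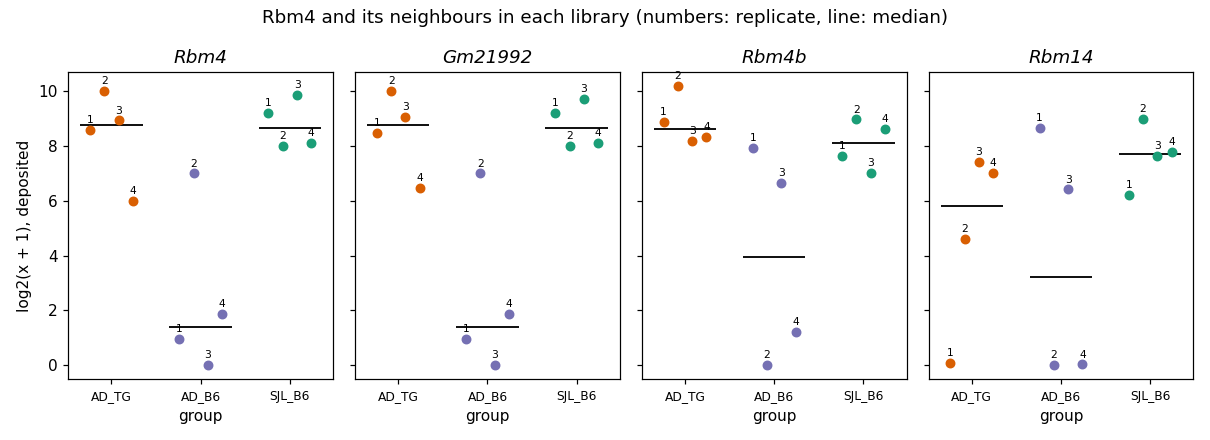
Deposited log2(x + 1) values of Rbm4, Gm21992, Rbm4b and Rbm14 in the 4 libraries of AD_TG, AD_B6 and SJL_B6 (points, numbered by replicate, with the group median as a line). For Rbm4 the AD_B6 libraries sit at 0 to 6.99, below the SJL_B6 libraries at 7.98 to 9.85, and the panels of Rbm4 and Gm21992 look alike.

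Sf3b4, an SF3B subunit next to the branch point, was at 9.16, 8.70, 10.14 and 9.27 in AD_TG, at 8.73, 8.34, 2.72 and 7.03 in AD_B6, against 9.33, 9.61, 9.12 and 8.85 in SJL_B6. AD_B6 replicate 3 stood far below the rest. The difference of AD_TG minus AD_B6 was 2.62 ± 1.03 (SE, unadjusted p = 0.018) and 1.29 without that library (unadjusted p = 0.0802).

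Hnrnpl, which binds CA-rich RNA, was at 8.84, 7.88, 8.95 and 9.02 in AD_TG, at 7.96, 5.70, 1.62 and 7.67 in AD_B6, against 8.97, 7.60, 8.39 and 9.38 in SJL_B6. Again AD_B6 replicate 3 was the lowest. AD_TG minus AD_B6 was 2.93 ± 1.24 (SE, unadjusted p = 0.0258), and without that library it was 1.56 (unadjusted p = 0.0986). For Rbm4 the same step left 5.10 (unadjusted p = 0.00244), and for Rbm4b it gave 5.85 (unadjusted p = 0.00141).

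In the other direction, the members with the smallest unadjusted p were Hnrnpul1, Hnrnpu, Rbm24 and Hnrnpdl. Hnrnpul1, which binds RNA and acts in transcription and DNA repair, was at 1.49, 4.60, 7.05 and 8.12 in AD_TG, at 8.34, 7.28, 8.77 and 8.40 in AD_B6, against 8.36, 6.38, 6.94 and 7.002 in SJL_B6. Its difference of AD_TG minus AD_B6 was -2.88 (unadjusted p = 0.0651), and without AD_TG replicate 1 it was -1.61. Rbm24, a muscle splicing regulator, had reads in 5 libraries only, at 2.09 in 1 AD_TG library, 6.51 and 7.77 in 2 AD_B6 libraries, and 7.53 and 3.51 in 2 SJL_B6 libraries. It passed the filter on low values only through AD_B6 and SJL_B6 libraries.

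Hnrnpu was at 11.08, 11.10, 10.295 and 11.05 in AD_TG, at 11.38, 11.47, 11.61 and 11.44 in AD_B6, against 11.23, 10.74, 11.36 and 10.27 in SJL_B6. The AD_B6 libraries were the 4 highest of the 12, though narrowly, with AD_B6 replicate 1 at 11.375 and SJL_B6 replicate 3 at 11.363. The share of all genes in this joint state was not counted. Hnrnpu was the 1 member whose AD_TG libraries all lay below those of AD_B6, a state of 0.928% of all tested genes, and the 1 member whose AD_B6 libraries all lay above those of SJL_B6, a state of 0.912% of them. The difference was small, -0.59 ± 0.38 for AD_TG minus AD_B6 (SE, unadjusted p = 0.128) and 0.57 ± 0.38 for AD_B6 minus SJL_B6 (unadjusted p = 0.14). Besides Rbm4b, Snrpb2, the U2 protein B'', had all AD_TG libraries above all AD_B6 libraries, which made 2 of 85 members (2.35%, against 1.95% of all tested genes), and it is named because of that count. Snrpb2 was at 9.48, 9.90, 9.35 and 10.19 in AD_TG, at 8.44, 7.52, 8.90 and 9.11 in AD_B6, against 9.87, 9.51, 9.10 and 10.20 in SJL_B6.

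AD_TG was also set against SJL_B6. At an unadjusted p under 0.05, 1 of the 85 members was higher in AD_TG (1.18%, against 1.84% of all tested genes) and 1 was lower (1.18%, against 1.15%), so both shares were near or below the background. The median difference of the members was -0.03, and that of all tested genes 0.08. A difference above 0 was found for 41 members and one below 0 for 44, where 53.3% of all tested genes lay above 0 and 46.7% below. Over all genes 220 were higher and 137 lower at an unadjusted p under 0.05, and quantile normalization gave 239 and 215.

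U2af1, the small subunit that reads the AG at the end of the intron, was the higher member. It was at 8.08, 8.90, 8.50 and 8.57 in AD_TG, at 8.69, 5.17, 6.41 and 6.97 in AD_B6, against 4.40, 6.05, 0.07 and 8.77 in SJL_B6. The AD_TG values lay close together and the SJL_B6 values far apart, with SJL_B6 replicate 4 inside the AD_TG range. AD_TG minus SJL_B6 was 3.69 ± 1.67 (SE, unadjusted p = 0.0368), and without SJL_B6 replicate 3 it was 2.10 (unadjusted p = 0.141). Within the last 300 bases of its longest transcript, 48.2% of the runs of 50 bases also occur in another gene, so reads of U2af1 may be split.

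Hnrnpdl, a relative of Hnrnpd, was the lower member, at 8.85, 8.37, 10.68 and 9.94 in AD_TG, at 10.29, 10.07, 10.61 and 9.43 in AD_B6, against 11.19, 11.50, 9.84 and 10.47 in SJL_B6. The groups overlapped through AD_TG replicate 3 and SJL_B6 replicate 3. AD_TG averaged 9.46 ± 1.05 and SJL_B6 10.75 ± 0.74 (SD, n = 4 each), a difference of -1.29 ± 0.56 (SE, unadjusted p = 0.0312), and without AD_TG replicate 2 it was -0.93 (unadjusted p = 0.116).

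The next 3 on the higher side by unadjusted p were Srsf3, Rbm20 and Rbm47. Srsf3 was at 9.99 ± 0.55 in AD_TG and 8.87 ± 0.41 in SJL_B6, and Rbm47 at 10.55 ± 1.30 in AD_TG against 9.53 ± 1.30 in SJL_B6 (SD, n = 4 each). Srsf3, the smallest SR protein, gave a difference of 1.13 (unadjusted p = 0.0927), and Rbm47, an RNA-editing cofactor, one of 1.02 (unadjusted p = 0.172). Rbm20, which controls titin splicing in the heart, was at 6.44, 7.65, 8.15 and 5.76 in AD_TG and at 0.02, 7.64, 3.89 and 0 in SJL_B6, a difference of 4.11 (unadjusted p = 0.112). Hnrnpul2 was the 1 member whose AD_TG libraries all lay above those of SJL_B6 (1.46% of all tested genes did), at 10.27, 10.31, 9.95 and 10.25 in AD_TG and at 9.13, 9.51, 9.79 and 9.90 in SJL_B6.

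On the lower side, Rbm28, a nucleolar protein, was the 1 member whose AD_TG libraries all lay below those of SJL_B6 (1.07% of all tested genes did). It was at 8.24, 5.71, 7.94 and 8.41 in AD_TG and at 9.52, 8.72, 9.65 and 9.16 in SJL_B6, a difference of -1.69 (unadjusted p = 0.0659). Srsf2, which binds exonic enhancers, averaged 9.59 ± 0.54 in AD_TG and 10.52 ± 0.72 in SJL_B6, and Hnrnpm averaged 10.46 ± 0.98 in AD_TG and 11.14 ± 0.43 in SJL_B6 (SD, n = 4 each). Both had overlapping groups, with unadjusted p-values of 0.115 and 0.18.

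AD_B6 was set against SJL_B6, which compares the AD label with the SJL label. At an unadjusted p under 0.05, 0 members were higher in AD_B6 (against 1.36% of all tested genes) and 4 were lower (4.71%, against 4.05%). The 4 were again Rbm4, Rbm4b, Sf3b4 and Hnrnpl, and the AD_B6 libraries that enter here are those of the comparison with AD_TG, so this is not a separate observation. The groups did not overlap for 2 lower members, Rbm4 and Sf3b4 (2.35%, against 1.91% of all tested genes). The members' median difference was -0.31, as was that of all tested genes, with 32 members above 0 and 53 below, where 40.2% of all tested genes lay above 0 and 59.8% below. Without AD_B6 replicate 3 the medians were -0.07 and -0.11. Over all genes 163 were higher and 484 lower at an unadjusted p under 0.05, and quantile normalization changed this split to 240 higher and 351 lower.

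Rbm4 had a difference of -6.33 ± 1.70 for AD_B6 minus SJL_B6 (SE, unadjusted p = 0.00102, adjusted p = 0.869 by limma), with a 95% interval of -9.83 to -2.83. With each library left out in turn the difference lay between -7.84 and -5.51. Over all 22 alternatives, changes of processing included, it lay between -7.84 and -4.43. For AD_TG minus AD_B6 the range of Rbm4 over all alternatives was 4.06 to 7.43. Rbm4b gave -4.10 ± 1.61 (SE, unadjusted p = 0.0176) and -2.79 without AD_B6 replicate 2 (unadjusted p = 0.0552). Sf3b4 gave -2.52 ± 1.03 (SE, unadjusted p = 0.0221) and -1.19 without AD_B6 replicate 3 (unadjusted p = 0.103). Hnrnpl gave -2.85 ± 1.24 (SE, unadjusted p = 0.0299) and -1.48 without that library (unadjusted p = 0.117).

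On the higher side of that comparison stood Sf3a3 and Hnrnpu, described above, with Rbm5 and U2af1. Rbm5, an exon-skipping factor, was at 9.36, 9.87, 10.07 and 8.94 in AD_B6, against 8.09, 5.18, 9.94 and 10.41 in SJL_B6. Its difference of 1.16 (unadjusted p = 0.202) rested on SJL_B6 replicate 2, and without that library it was 0.08. U2af1 differed by 1.99 (unadjusted p = 0.245), and without SJL_B6 replicate 3 by 0.40.

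**Figure D4:**
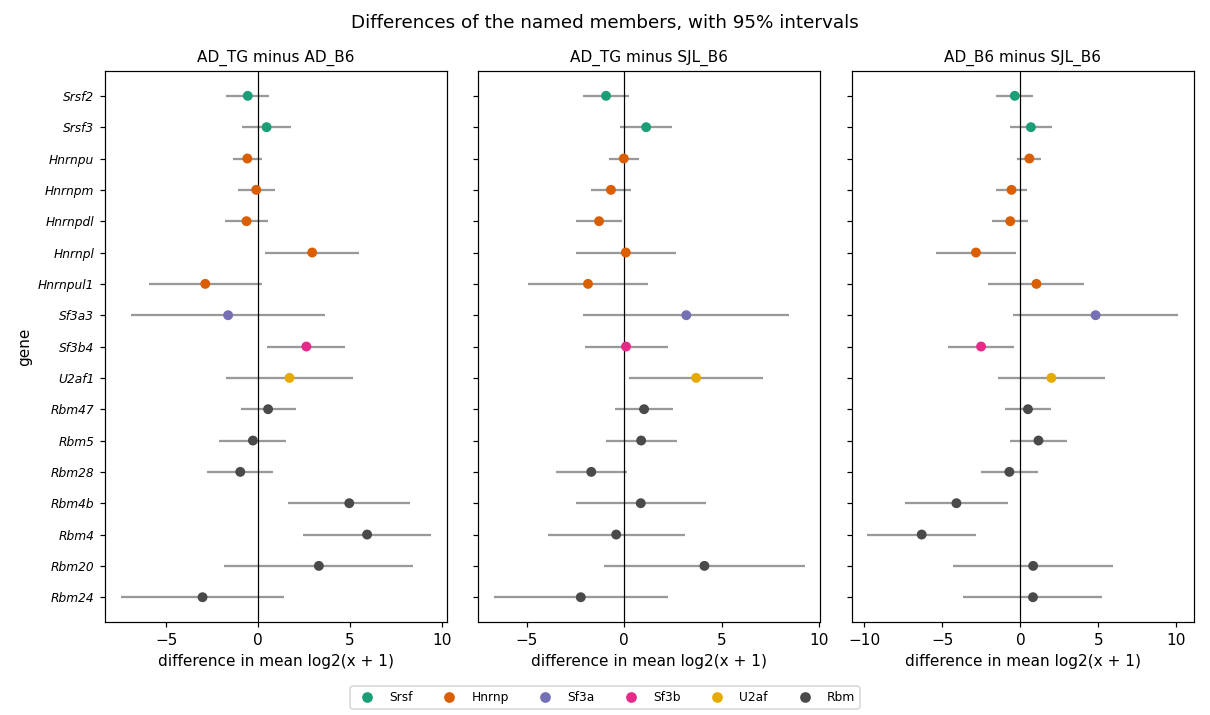
Difference in mean log2(x + 1) with its 95% interval (limma) for the named members, in AD_TG minus AD_B6, AD_TG minus SJL_B6 and AD_B6 minus SJL_B6. Rbm4 stands at 5.92, -0.41 (0.39 without AD_TG replicate 4) and -6.33 in the 3 panels, and most other intervals include 0; the panels share libraries in pairs.

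For the 55 members with reads in all libraries the median difference was 0.13 for AD_TG minus AD_B6, -0.02 for AD_TG minus SJL_B6 and -0.08 for AD_B6 minus SJL_B6. For all tested genes with reads in all 12 libraries it was 0.10, 0.02 and -0.07. For the 30 tested members without reads somewhere it was 1.54, -0.29 and -1.23, and for all such genes 1.12, 0.24 and -0.84. A gene low or without reads in 1 group falls by that alone into the set with missing reads, so nothing is read from the gap between the sets.

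Other genes of the splicing machinery were counted in the same way. Of 68 other spliceosome components, 67 were tested, and of 53 splicing regulators and kinases, 48, and 0 passed the adjusted test in each comparison. At an unadjusted p under 0.05, 2 and 3 genes of these lists were higher in AD_TG than in AD_B6 (2.99 and 6.25%, against 4.34% of all tested genes) and 0 were lower (against 1%). In AD_TG against SJL_B6, 0 and 2 were higher (0 and 4.17%, against 1.84%) and 1 and 1 lower (1.49 and 2.08%, against 1.15%). In AD_B6 against SJL_B6, 0 were higher (against 1.36%) and 5 and 1 lower (7.46 and 2.08%, against 4.05%).

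Cdc5l, a core part of the spliceosome's Prp19-associated complex, was at 9.63, 10.26, 7.42 and 9.54 in AD_TG, at 10.17, 4.996, 0 and 7.40 in AD_B6, against 10.14, 10.53, 9.22 and 9.60 in SJL_B6. Dhx8, the helicase that frees the spliced transcript, was at 9.33, 6.10, 8.45 and 9.49 in AD_TG, at 7.52, 8.57, 0 and 0.03 in AD_B6, against 9.37, 8.33, 9.32 and 8.30 in SJL_B6. AD_B6 replicate 3 had no reads of either gene. AD_B6 minus SJL_B6 was -4.23 for Cdc5l (unadjusted p = 0.00516) and -2.36 without that library. For Dhx8 it was -4.80 (unadjusted p = 0.00997) and -3.46 without it.

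Clk2, a kinase of SR proteins, was at 7.14, 4.04, 7.75 and 7.44 in AD_TG and at 10.13, 9.23, 9.25 and 9.06 in SJL_B6, so these groups did not overlap. It was the 1 of the 48 tested regulators and kinases in this lower state (2.08%, against 1.07% of all tested genes). AD_TG minus SJL_B6 was -2.83 ± 1.16 (SE, unadjusted p = 0.0223 by limma), and without AD_TG replicate 2 it was -1.98 (unadjusted p = 0.0809). Ddx39b, the helicase that helps U2 join, averaged 10.42 ± 0.50 in AD_TG and 11.31 ± 0.36 in SJL_B6, and Celf1, a splicing and decay factor, averaged 11.36 ± 0.69 in AD_TG and 10.32 ± 0.46 in SJL_B6 (SD, n = 4 each). Khdrbs3, a STAR-family splicing regulator, was at 0.07, 8.68, 7.76 and 6.56 in AD_TG and at 1.14, 0, 0.07 and 0 in SJL_B6. Khdrbs3 passed the filter on low values only through AD_TG and AD_B6 libraries, so its gap to SJL_B6 is not taken as support. The smallest unadjusted p on the higher side of AD_B6 against SJL_B6 belonged to Pcbp1, at 11.25 ± 0.44 in AD_B6 against 10.46 ± 0.63 in SJL_B6, and Srpk2, at 10.17 ± 0.87 in AD_B6 against 9.19 ± 0.37 in SJL_B6 (SD, n = 4 each). On the lower side of AD_TG against AD_B6 they were Prpf38b (-1.27, unadjusted p = 0.0988) and Crnkl1 (-3.51, unadjusted p = 0.125).

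Several members share sequence with other genes, which can move reads between them. Of 93 members with a coding transcript in the mouse annotation, 10 shared at least 1 run of 50 bases in their last 300 bases with another gene, and 3 shared 50% or more of such runs: Rbm31y, Rbm42 and U2af1l4. Snrpn and Snurf, which lie on 1 transcript, had values within 0.02 of each other in 6 of the 12 libraries.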

How the data were processed

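Expression was measured by RNA sequencing of 12 libraries, 4 per group. The tools named, without versions, per the submitters' processing notes are Bowtie2 and bedtools, and the build named is hg19. It is a human build while the symbols are those of the mouse, so no coordinate of the authors' build was used, and GENCODE M21 (GRCm38) served for sequences, lengths and shared runs of bases. The deposited values are log2(x + 1), 1 per gene symbol, and their scaling is not given in the sources used here. Of 23282 entries per file, 35 symbols had more than 1, of which that with the highest mean entered (44 left out). Of the values below 20 on the linear scale, 90.8 to 100% lay within 0.15 of a whole number of reads.

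The test was limma (version 3.58.1, under R 4.3.3, lmFit and eBayes with trend, two-sided) for genes that reached 10 on the linear scale in 4 or more libraries, all 12 libraries in 1 fit, with Benjamini-Hochberg adjustment over all tested genes. The code was tested on simulated, normally distributed values, with changes planted only in genes of high mean. Genes that mix zeros with high values, such as Rbm4, were not covered by that check. Counting error was taken from the estimated reads and covers counting only.

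Members and gene lists were chosen with earlier results of these data known. Genes named were Rbm4 and its neighbours, the 10 highest means, the highest of each family, up to 4 tested members per direction and comparison by unadjusted p, the 4 lowest and 4 highest SDs, members without reads, and up to 2 genes per direction of the other lists. Other markers examined were pan-endothelial (0.00907 to 0.0421% of the linear total over all libraries), neutrophil (0.00670 to 0.298%), neuron (0.0177 to 0.117%), pineal (0.0236 to 0.246%) and erythroid (0.0774 to 0.878%).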

Additional observations from a re-analysis of the deposited data

Results flagged for a closer look

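In 150 groups of 4 libraries, from 49 named genes and the number of members with reads, each in 3 groups, 12 had 1 library set apart from the other 3 beyond the 95% critical value of Dixon's gap ratio. That value marks about 1 in 20 groups of normally distributed values. Several of these groups mix zeros with high values, and some genes were picked for their spread, so the 12 are not set against that rate. All values are on the deposited log2 scale.

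In AD_TG, Hnrnpu was at 10.295 in replicate 3, where the others were at 11.05 to 11.10. Low values stood in AD_TG replicate 2: Hnrnpl at 7.88 (others 8.84 to 9.02), Snrpc at 3.47 (others 7.10 to 7.60) and the kinase gene Clk2 at 4.045 (others 7.14 to 7.75). In AD_TG replicate 4, Celf1 was at 10.33 (others 11.55 to 11.78) and Rbm24 at 2.09, where the others had no reads.

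In AD_B6, Rbm25 was at 9.998 in replicate 4 (others 10.74 to 10.88), and Sf3a3 was at 0 in replicate 3 (others 7.56 to 8.01). In SJL_B6, Hnrnpk was at 11.57 in replicate 2 (others 10.49 to 10.66). Replicate 1 of SJL_B6 held Srsf5 at 9.35 (others 10.51 to 10.59), Hnrnpab at 9.51 (others 10.38 to 10.52) and Khdrbs3 at 1.14, where the others had no reads.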

How the results depend on the processing

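Alternatives were no filter, reads in all libraries as the filter, pseudocounts of 0.5 and 10, a median shift, quantile normalization, array weights, fits of 2 groups only, the mean of repeated symbols, and each library left out. The 0 genes called in each comparison held under every alternative tried, leave-one-out fits included, except that eBayes without a trend called 10 genes for AD_TG against AD_B6, 2 for AD_TG against SJL_B6 and 10 for AD_B6 against SJL_B6, none of them a splicing factor gene. Same-numbered replicates correlated at -0.015 to 0.067 after group means were removed, so the numbers were not taken to pair samples. With the replicate number as a block, 0 genes were called, with lowest adjusted p-values of 0.842, 0.998 and 0.833 in that order. Of the named differences recomputed, 2 changed sign, both with libraries left out: Rbm14 in AD_TG against AD_B6 (1.005, with a range of -0.25 to 2.63) and Rbm4 in AD_TG against SJL_B6 (-0.41, with a range of -0.95 to 0.39). The counts of members at an unadjusted p under 0.05 moved by more than 1.5 times in 30 of their recomputed values: in AD_B6 against SJL_B6 the 4 lower members became 7 without AD_B6 replicate 1 and 2 with array weights, and in AD_TG against AD_B6 the 4 higher members became 2 without AD_TG replicate 3. The adjusted p of Rbm4 ranged from 0.426 to 0.966 over the alternatives in AD_TG against AD_B6 and from 0.289 to 0.995 in AD_B6 against SJL_B6. With 4 libraries per group, an exact permutation test of 1 gene could not go below 0.0286.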
